A study of Canis lupus familiaris with 13 samples.

Results

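Genes of the stressed heart muscle cell, the 5 genes ANKRD1, FHL1, CRYAB, UCHL1 and HSPB7, were followed across dog hearts with and without dilated cardiomyopathy. They were taken by gene symbol: every probe set that the array annotation assigns to one of these 5 symbols was included, whatever its values. The 5 genes are 5 of 6540 genes with a symbol of their own on the array, and 12 of its 23836 probe sets carry their symbols. Of these 12, 10 passed a filter on low signal and were tested among 14302 probe sets in all.

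RNA from heart tissue of 13 separately named samples was hybridised to a canine Affymetrix array, 1 array per sample. Control tissue came from 3 mongrels (P1, P4 and P9). Dilated cardiomyopathy, a disease in which the ventricle widens and contracts weakly, was represented by 3 Dobermans (K, L and R) and 4 Boxers (1 to 4), and 3 further mongrels (LV01, LV02 and LV04) belonged to a pacing group. Pacing the canine heart at a high rate is a widely used model of heart failure, but the pacing rate and length, the ages, the heart chamber and any treatment were not given in the sources used here. No healthy Doberman or Boxer was among the samples, so breed and disease cannot be told apart, and the labels do not say that each sample is a separate animal, so the p-values measure the spread between these samples.

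ANKRD1 is a muscle ankyrin repeat protein that binds the spring region of titin and also enters the nucleus; its transcript is induced by stretch and pressure load. FHL1 is a LIM-domain protein of the sarcomere that also binds the titin spring and takes part in the response to stretch. CRYAB (alpha B-crystallin) and HSPB7 are small heat shock proteins, chaperones without ATPase activity that hold unfolding proteins, among them desmin, filamin C and titin, in a soluble state. UCHL1 is a ubiquitin hydrolase best known as a protein of neurons and endocrine cells, and it trims ubiquitin from small adducts and recycles it. Mutations of CRYAB and FHL1 cause muscle and heart muscle disease in people.

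Values are MAS5 signals on a linear scale, which measure brightness and not molecules, and levels of different probe sets cannot be ranked against each other. Changes are differences of log2(signal + 16) between group means, with a standard error (SE) from limma, and a change was called at an adjusted p under 0.05. The paced and Doberman arrays stood apart by median signal. It was 207.55 to 219.3 in paced mongrels and 160.3 to 234.35 in Dobermans, against 142.5 to 146.25 in controls and 132.15 to 145.7 in Boxers. The Doberman arrays stood apart in other measures as well. The mean correlation of a Doberman array with the other arrays of its group was 0.789 (K) to 0.844 (R), against 0.947 to 0.969 on the other 10 arrays. The ratio of 3' to 5' signal of the control gene GAPDH was 2.10 in L and 3.62 in R, against 0.967 to 1.09 on the other 11 arrays, K included. For the control gene actin the log2 of this ratio set only R apart, at -0.08. It was -1.92 in L and -1.90 in K, inside the Boxer range of -1.97 to -1.56, and -3.17 to -2.34 in controls. Of 13 cardiomyocyte markers 11 were tested, and their summed signal was 230539 to 335030 in controls, 233839 to 264190 in Boxers, 249180 to 499649 in Dobermans and 204192 to 227655 in paced mongrels. The tissue is heart muscle by these markers in every group, and their level was highest in L and R. Of the markers of other cells, 3 of 8 fibroblast, 2 of 7 smooth muscle and 2 of 10 macrophage markers rose in Dobermans against controls, and 1 smooth muscle marker (EDNRA), 1 macrophage marker (LYZ) and 1 of 7 endothelial markers fell. In paced mongrels 1 marker each of fibroblasts, smooth muscle and macrophages rose, and 1 smooth muscle marker (MCAM) and 2 endothelial markers fell. In Boxers 0 of these markers passed, though the summed fibroblast signal was 24624 to 36104 in Boxers and 21932 to 38332 in Dobermans, against 17141 to 25809 in controls and 16578 to 21280 in paced mongrels. The part of RNA quality, of cardiomyocyte RNA and of these other cells in the values below was not tested. In bulk tissue fewer cells of a type and less RNA per cell cannot be told apart.

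**Figure D1:**
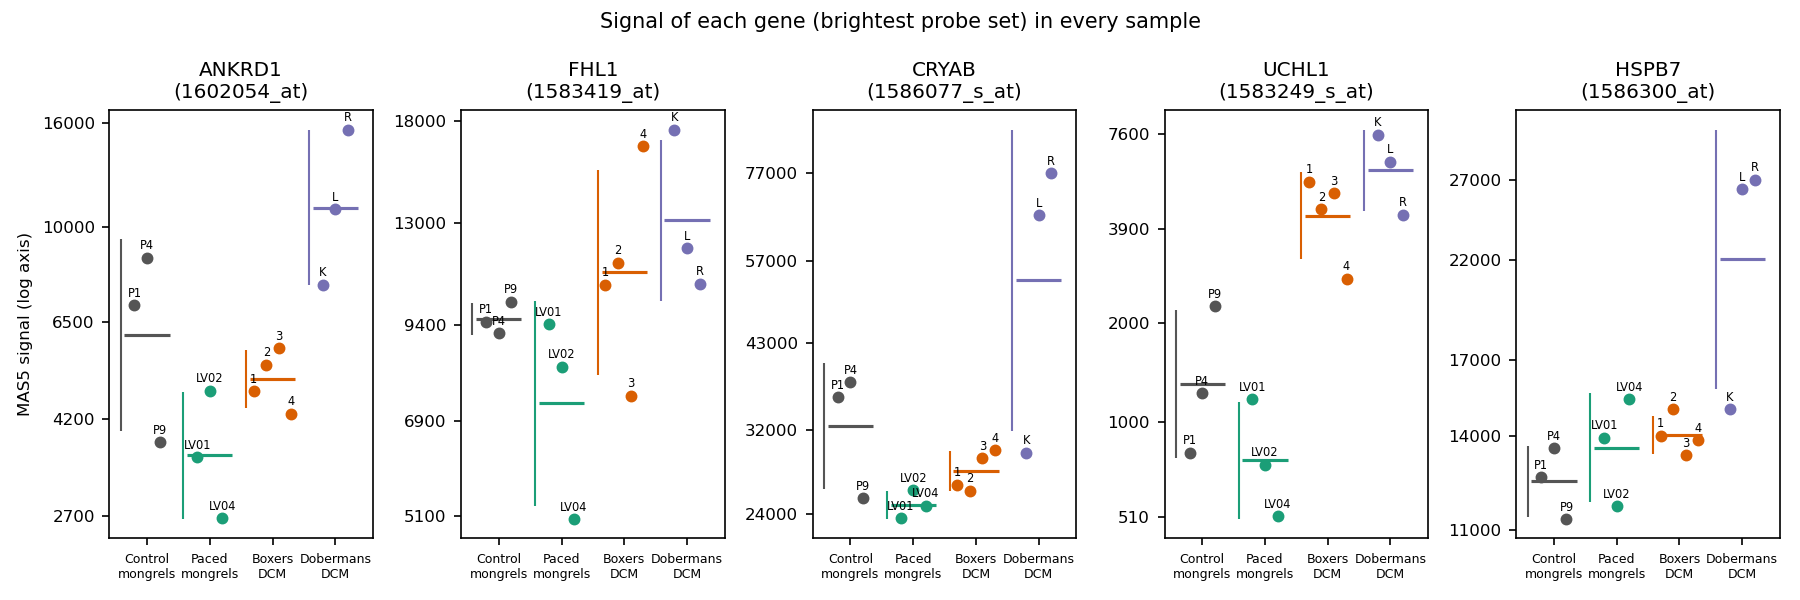
Deposited signal of the brightest tested probe set of each gene (vertical axis, log scale) in each of the 13 samples, by group; points are samples named by their labels, horizontal lines are group means on the log2 scale and vertical lines span 1 SD on either side. UCHL1 lies above all controls in every Boxer and every Doberman, while for CRYAB, HSPB7 and ANKRD1 the high points are Dobermans L and R.

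UCHL1 separated both breeds with cardiomyopathy from both mongrel groups. At its brighter probe set, 1583249_s_at, the control signals were 802.9 (P1), 1220.5 (P4) and 2263.8 (P9), and those of the paced mongrels were 1169.8 (LV01), 738.2 (LV02) and 512.5 (LV04). The Dobermans read 7582.9 (K), 6261.7 (L) and 4316.4 (R). The Boxers read 5441.8, 4479.5, 5022.5 and 2746.8 in samples 1 to 4. The lowest of the 7 diseased hearts, Boxer 4, lay above the highest mongrel, control P9, and among the mongrels the control and paced ranges overlapped.

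The group means were 1429 ± 752 in controls, 4423 ± 1185 in Boxers, 6054 ± 1643 in Dobermans and 807 ± 334 in paced mongrels (SD, n = 3, 4, 3 and 3). UCHL1 rose in Dobermans against controls by 2.16 ± 0.39 on the log2 scale, a 4.47-fold change with a 95% interval of 1.33 to 2.99 (adjusted p = 0.00567, limma). Of 5242 tested genes, 16 had a larger rise in that comparison. In Boxers the change was 1.70 ± 0.36, or 3.25-fold, with an interval of 0.93 to 2.48; it did not pass (adjusted p = 0.228), although its unadjusted p was 0.000343 and 12 genes had a larger rise. The difference between the breeds was 0.46 ± 0.36 with an interval of -0.31 to 1.23 (adjusted p = 0.322), so these data neither show a breed difference nor bound it closely.

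The contrast with the paced hearts was wider. UCHL1 was 7.59-fold higher in Dobermans (2.92 ± 0.39, adjusted p = 0.000415) and 5.52-fold higher in Boxers (2.46 ± 0.36, adjusted p = 0.00122) than in paced mongrels. Paced mongrels against controls gave -0.76 ± 0.39 (interval -1.59 to 0.07, adjusted p = 0.209). In order of mean level the groups ran from paced to control to Boxer to Doberman, and the neighbours paced and control, and Boxer and Doberman, did not differ beyond their spread. The middle neighbours, control and Boxer, did not overlap but did not pass either.

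The dimmer UCHL1 probe set, 1584026_at, read 45.5, 43.9 and 205.2 in controls P1, P4 and P9, and 64.3, 8.9 and 3.6 in paced LV01, LV02 and LV04. It read 572.5, 539.6, 531.3 and 260.4 in Boxers 1 to 4, and 669.4, 145.0 and 196.0 in Dobermans K, L and R. All 4 Boxers lay above all mongrels here, whereas Dobermans L and R lay below control P9. The Boxer change against controls was 2.34 ± 0.61 (adjusted p = 0.332) and the Doberman change 1.61 ± 0.66 (adjusted p = 0.0793). Against paced mongrels the changes were 3.80 ± 0.61 in Boxers (adjusted p = 0.00181) and 3.07 ± 0.66 in Dobermans (adjusted p = 0.00593). Control and paced means lay under the filter level, a signal of 108, so the size of these changes depends on the constant added before the logarithm. Over the 13 arrays both UCHL1 probe sets correlated at r = 0.919 as a description.

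UCHL1 is also a neuronal gene, and neuron and Schwann cell markers, at low signal, differed between groups as well. Of 20 listed markers 9 were on the array and 4 were tested (NEFH, NEFL, SNAP25 and GAP43); STMN2, NEFM, TH, S100B and ELAVL4 lay under the filter. The summed signal was taken over all 9, those under the filter included. It was 683 to 840.5 in controls, 950.5 to 1289.8 in Boxers, 1066.5 to 2049.8 in Dobermans and 1639.6 to 2261.2 in paced mongrels. NEFH, a neurofilament subunit, rose in Dobermans (1.81, adjusted p = 0.0102) and in paced mongrels (1.30, adjusted p = 0.0412), and SNAP25, a protein of synaptic vesicle release, rose in both (1.58, adjusted p = 0.0344, and 1.76, adjusted p = 0.0335). Mean control signals were 94.1 for NEFH, 67.4 for NEFL and 118.4 for SNAP25, near or under the filter level of 108. NEFH read 73.2 in Boxers, so it was tested only through the groups where it was high and its rises are no separate support. GAP43, a growth cone protein, rose in paced mongrels (0.90, adjusted p = 0.0177) and gave 0.34 in Dobermans. None of the 4 passed in Boxers. The paced calls were lost under quantile normalization and median centring, where 0 of 4 passed. In Dobermans 1 of 4 passed under each of these, and SNAP25 lost its call (adjusted p = 0.075 and 0.0854, limma). With arrays centred on cardiomyocyte markers 4 of 4 rose in paced mongrels. With Dobermans L and R left out, the median change of the 4 in K was 0.84, against 1.57 with all Dobermans. The part of nerve RNA in the UCHL1 values was not tested.

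Other ubiquitin genes did not move as UCHL1 did. Of 12 listed hydrolases, ubiquitin genes and a muscle ubiquitin ligase 9 were tested: 0 rose and 2 fell in Dobermans, and 0 passed in Boxers or in paced mongrels. Their median change was -0.08, -0.09 and -0.39 in Dobermans, Boxers and paced mongrels, beside 0.04, -0.02 and -0.04 over all genes. Of all 5242 tested genes 25.9% were called in Dobermans (11.9% higher and 14.0% lower), 0.0572% in Boxers and 9.16% in paced mongrels, and this and the further list counts stand beside those shares. UCHL3, the closest relative of UCHL1 in the list, fell in Dobermans by 1.66 ± 0.38 (adjusted p = 0.0133), and UBB, a polyubiquitin gene, fell by 0.67 ± 0.22 (adjusted p = 0.0392). With Dobermans L and R left out neither passed, and UCHL3 in K gave -0.46 (adjusted p = 0.248). The ligase FBXO32 (atrogin-1) and the deubiquitinase USP9X passed in none of the comparisons with controls.

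HSPB7, the cardiovascular small heat shock protein, read 12597.3, 13585.5 and 11324.3 in controls P1, P4 and P9. The Dobermans read 15007.6 (K), 26349.3 (L) and 27004.7 (R). The Boxers read 14010.2, 14991.7, 13341.0 and 13845.9, and the paced mongrels read 13947.9, 11706.8 and 15394.6. All 3 Dobermans lay above all controls, L and R far above every other heart and K just above the highest Boxer and below paced LV04.

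Group means were 12502 ± 1134, 14047 ± 691, 22787 ± 6745 and 13683 ± 1858 in controls, Boxers, Dobermans and paced mongrels (SD, n = 3, 4, 3 and 3). HSPB7 rose in Dobermans against controls by 0.82 ± 0.22 (adjusted p = 0.0191), and was higher than in Boxers by 0.65 ± 0.20 (adjusted p = 0.0257) and than in paced mongrels by 0.69 ± 0.22 (adjusted p = 0.0325). These calls rest on L and R: with both left out the change against controls was 0.27 (adjusted p = 0.421), and leaving out any one of P1, P9, L or R gave an adjusted p of 0.0549 to 0.065. In Boxers the change was 0.17 ± 0.20 (interval -0.26 to 0.60). In paced mongrels it was 0.12 ± 0.22 and turned to -0.38 when arrays were centred on their medians.

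CRYAB, the small heat shock protein that binds desmin, was read most brightly by 1586077_s_at. There the controls read 35757.8, 37696.3 and 25359.4, the Boxers 26542.2, 26010.5, 29062.4 and 29858.3, and the paced mongrels 23655.8, 26037.2 and 24715.5. The Dobermans read 29601.4 (K), 66588.2 (L) and 76867.4 (R). K lay inside the control range and L and R lay far above it, so the groups overlapped.

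The mean signals were 32938 ± 6634, 27868 ± 1879, 57686 ± 24859 and 24803 ± 1193 in controls, Boxers, Dobermans and paced mongrels. The Doberman change against controls, 0.72 ± 0.29 (interval 0.10 to 1.34), did not pass (adjusted p = 0.0781). It passed without K (1.14, adjusted p = 0.00022, limma) and was -0.13 in K alone. Quantile normalization, which forces all arrays to one distribution, reduced it to 0.00033. This set ranked 1 to 20 by signal on every array, so that normalization gives it nearly the same value on each. It therefore cannot decide this change or the CRYAB differences that follow. CRYAB was higher in Dobermans than in Boxers by 0.94 ± 0.27 (adjusted p = 0.0195) and than in paced mongrels by 1.10 ± 0.29 (adjusted p = 0.0153), and both differences turned to -0.03 under quantile normalization. Boxers and paced mongrels gave -0.22 ± 0.27 and -0.39 ± 0.29 against controls (adjusted p = 0.921 and 0.402), with the sign turned under quantile normalization and when arrays were centred on cardiomyocyte markers.

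The dimmer CRYAB probe sets followed it in part. At 1594630_s_at the controls read 337.1, 231.1 and 377.6, the Boxers 406.7, 322.1, 227.3 and 331.4, the Dobermans 246.5, 498.2 and 4062.6, and the paced mongrels 209.3, 91.9 and 69.9. Doberman R stood far above the other 12 hearts. The paced hearts lay below all others, and the difference between Dobermans and paced mongrels passed (2.68 ± 0.72, adjusted p = 0.0173), fell to 1.52 without R (adjusted p = 0.0277) and lost its call in 5 of 16 alternatives, while that between paced mongrels and controls did not (-1.35 ± 0.72, adjusted p = 0.234). The probe set 1594631_s_at ranged from 355.1 in K to 1571.0 in L, with controls at 503.7 to 577.1 and Boxers at 431.4 to 724.0, and passed in no comparison. These sets correlated with the brightest at r = 0.760 and 0.707, but by rank only at 0.593 and 0.313 (Spearman). With each other they correlated at r = 0.307.

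The wider small heat shock family was measured at 4 of 8 listed members. In Dobermans 1 of the 4 rose and 0 fell, and 0 passed in Boxers or paced mongrels. The median change was 0.25 in Dobermans, -0.0016 in Boxers and -0.24 in paced mongrels. HSPB8, the partner of the co-chaperone BAG3, rose in Dobermans by 0.67 ± 0.16 (adjusted p = 0.0142) and gave 0.10 in Boxers and -0.19 in paced mongrels; in K alone it gave 0.36 (adjusted p = 0.135). HSPB1 (HSP27) gave 0.41 ± 0.21, HSPB6 gave -0.44 ± 0.28 and HSPB3 gave 0.09 ± 0.56 in Dobermans, none of which passed.

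Among 17 tested chaperone partners and heat shock response genes, 3 rose and 2 fell in Dobermans, 0 passed in Boxers and 1 rose in paced mongrels. SYNPO2, a filamin-binding protein of chaperone-assisted autophagy that smooth muscle also expresses, rose in Dobermans by 1.20 ± 0.29 (adjusted p = 0.0143) and was the only gene of the list that passed with L and R left out (1.89, adjusted p = 0.0118). HSF1, the master regulator of the heat shock response, rose by 0.83 ± 0.23 (adjusted p = 0.0242). The chaperones HSPA9 of the mitochondrion and HSPA5 of the endoplasmic reticulum fell, with changes of -1.57 ± 0.33 (adjusted p = 0.00956) and -3.01 ± 0.85 (adjusted p = 0.0246); in K they gave -0.52 (adjusted p = 0.158) and -0.039 (adjusted p = 0.966). The list's median was -0.20 in Dobermans, 0.04 in Boxers and -0.24 in paced mongrels, beside the medians of all genes given above.

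ANKRD1, the stretch-induced ankyrin repeat gene, had 1 probe set, 1602054_at. The controls read 7014.3 (P1), 8701.8 (P4) and 3781.0 (P9), and the Dobermans 7695.7 (K), 10836.2 (L) and 15517.2 (R). The Boxers read 4757.8, 5361.0, 5777.5 and 4294.2, and the paced mongrels 3527.2 (LV01), 4764.5 (LV02) and 2681.2 (LV04). Doberman K lay between controls P1 and P4, the Boxers all lay inside the wide control range, and paced LV01 and LV04 lay below every control.

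The means were 6499 ± 2501 in controls, 5048 ± 654 in Boxers, 11350 ± 3936 in Dobermans and 3658 ± 1048 in paced mongrels. None of the comparisons of ANKRD1 with controls passed. The Doberman change was 0.83 ± 0.32 (interval 0.14 to 1.51, adjusted p = 0.0673), the Boxer change -0.29 ± 0.30 (adjusted p = 0.896) and the paced change -0.78 ± 0.32 (interval -1.47 to -0.10, adjusted p = 0.122). The diseased and paced groups differed among themselves: ANKRD1 was 2.17-fold higher in Dobermans than in Boxers (1.12 ± 0.30, adjusted p = 0.0147) and 3.05-fold higher than in paced mongrels (1.61 ± 0.32, adjusted p = 0.00403). The low reading of P9 widened the control group; without P9 the Doberman change was 0.48 (adjusted p = 0.257) and the paced change -1.13 (adjusted p = 0.0388). The paced change passed in 4 of 16 alternatives.

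Of 14 tested genes of the titin spring and Z-disc, where ANKRD1 and FHL1 act, 4 rose and 2 fell in Dobermans, 0 passed in Boxers and 1 rose in paced mongrels. The list's median was 0.08, -0.08 and -0.28 in Dobermans, Boxers and paced mongrels. DES, the intermediate filament desmin, rose in Dobermans by 1.26 ± 0.28 (adjusted p = 0.0112), and the other risers were MYPN, TCAP and MYOZ1. PALLD (palladin), an actin-binding scaffold, fell by 2.07 ± 0.52 (adjusted p = 0.017). With L and R left out only FHL2 of this list passed.

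Genes that respond to mechanical load or to the coactivator YAP gave 2 rises among 6 tested in Dobermans and 0 calls in Boxers and paced mongrels, with medians of 0.85, 0.23 and -0.21. THBS1, a matricellular protein, rose by 1.01 ± 0.30 (adjusted p = 0.0305), and in K alone by 1.57 (adjusted p = 0.0379). EDN1, the precursor of endothelin, rose by 1.11 ± 0.37 (adjusted p = 0.0418) and gave 0.52 in K (adjusted p = 0.595). The regulator TEAD1 and the actin-binding TAGLN passed in none of the comparisons with controls.

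Of 15 listed symbols of fetal and wall stress genes 6 were tested, and NPPA, NPPB and MYH6 were not among them. In Dobermans and in Boxers 0 of the 6 passed, and in paced mongrels 2 rose, with medians of 0.60, 0.64 and 1.25 in that order. ACTA1, the skeletal alpha-actin of the fetal heart, rose in paced mongrels by 2.88 ± 0.37 (adjusted p = 0.00112) and gave -0.02 ± 0.37 in Dobermans and 0.63 in Boxers. SPP1 (osteopontin), a secreted matrix protein, rose in paced mongrels by 2.58 ± 0.79 (adjusted p = 0.047), and gave 2.66 ± 0.73 in Boxers (adjusted p = 0.332) and 1.89 ± 0.79 in Dobermans (adjusted p = 0.0847). With L and R left out, K gave a rise of CCN2, a secreted matricellular protein (1.47, adjusted p = 0.0272), and a fall of ACTA1 (-1.20, adjusted p = 0.0312), so 1 gene rose and 1 fell. The SPP1 call in paced mongrels was lost under quantile normalization (adjusted p = 0.0553) and median centring (adjusted p = 0.0833). Under median centring ANKRD1, CRYAB and UCHL1 passed as lower in paced mongrels (adjusted p = 0.0113, 0.0148 and 0.0394, limma), as did 11 of 11 cardiomyocyte markers.

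FHL1 was read by 4 probe sets, which did not tell one story. At the brightest, 1583419_at, the controls read 9490.4, 9139.1 and 10112.4, the Dobermans 17504.4, 12004.5 and 10712.5, the Boxers 10673.4, 11452.6, 7492.2 and 16596.7, and the paced mongrels 9407.9, 8220.6 and 5055.8. All 3 Dobermans lay above the tightly grouped controls, with K the highest, and the Boxers spread on both sides of them. The Doberman change was 0.45 ± 0.29 (interval -0.17 to 1.08, adjusted p = 0.247), the Boxer change 0.21 ± 0.27 (adjusted p = 0.926) and the paced change -0.39 ± 0.29 (adjusted p = 0.407). Dobermans were 1.79-fold higher than paced mongrels (0.84 ± 0.29, adjusted p = 0.0494), a call close to the threshold that was lost in 12 of 16 alternative settings.

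At 1583420_at, annotated to the same source sequence, Dobermans L and R were high at 13340.4 and 8817.8 while K read 2749.8, the lowest of all 13 samples. The controls read 2798.3 to 3683.2, the Boxers 3045.1 to 4290.1, and the paced mongrels 3326.6 to 4750.0. The Doberman change was 1.06 ± 0.41 (adjusted p = 0.0694). K was thus the lowest heart at this set and the highest at 1583419_at, and over 13 arrays the 2 sets correlated at r = -0.004.

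At the dimmer 1594628_s_at the paced hearts were high. The controls read 827.6, 592.7 and 815.6, and the paced mongrels 2818.3, 2671.4 and 1479.2. The Boxers read 1592.2, 1121.9, 1327.6 and 1785.2, and the Dobermans 2495.3, 1597.9 and 550.7. Every paced mongrel and every Boxer lay above every control, and Doberman R lay below them. The paced change was 1.58 ± 0.43, or 2.99-fold (adjusted p = 0.029), the Boxer change 0.95 ± 0.40 (adjusted p = 0.624) and the Doberman change 0.81 ± 0.43 (adjusted p = 0.161). The paced call was lost in 6 of 16 alternatives, with an adjusted p of 0.0601 to 0.115 in those. Which parts of the FHL1 transcript each set reads was not analysed here.

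**Figure D2:**
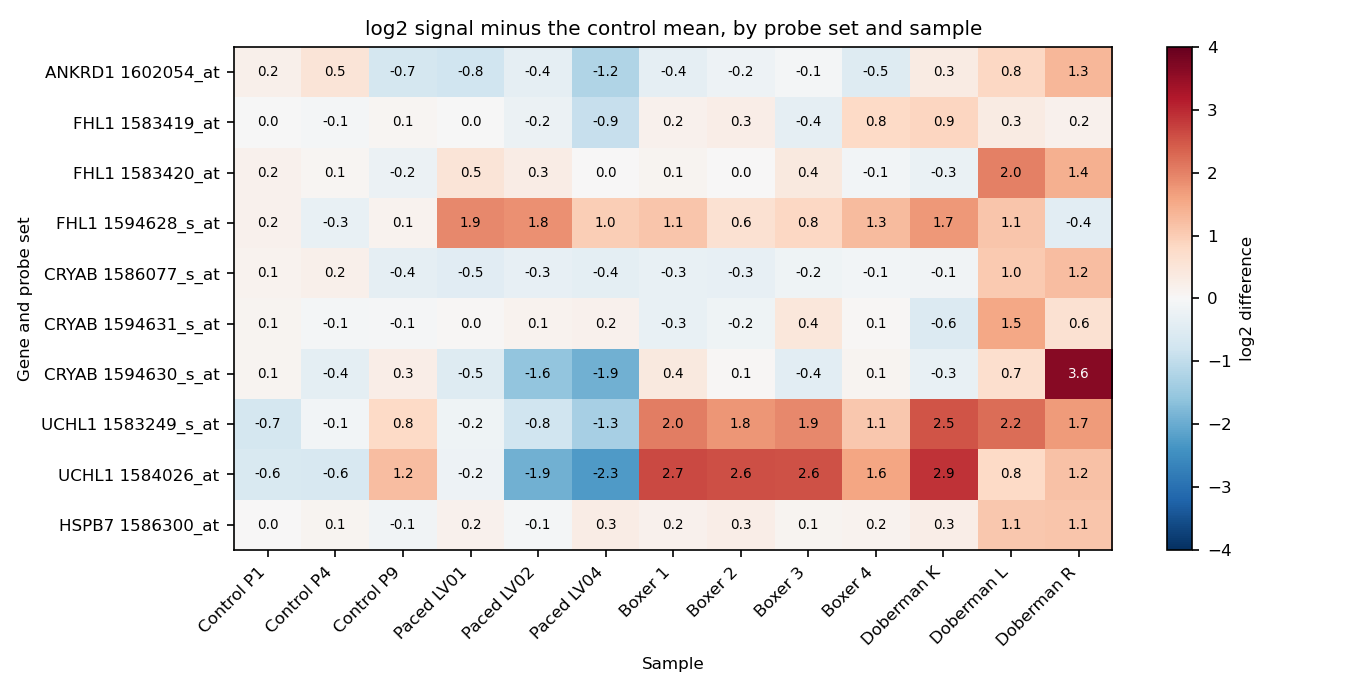
Difference of log2(signal + 16) from the mean of the 3 controls, printed and coloured (red higher, blue lower), for each of the 10 tested probe sets (rows) in each sample (columns). Both UCHL1 rows are red in every Boxer and Doberman, the FHL1 row 1594628_s_at is red in every paced mongrel and Boxer, and in the CRYAB, ANKRD1 and HSPB7 rows the deepest red cells belong to Dobermans L and R.

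Of the other FHL family genes, FHL2, the LIM-only protein most abundant in heart, fell in Dobermans by 1.35 ± 0.18 (adjusted p = 0.00204) and also in K alone (-1.26, adjusted p = 0.0139), and gave -0.18 in Boxers and -0.31 in paced mongrels. FHL5 rose in paced mongrels by 1.62 ± 0.37 (adjusted p = 0.0147) and gave -0.38 in Dobermans. FHL1 and FHL2 thus had point estimates of opposite sign in Dobermans, and only that of FHL2 passed.

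The counts over the lists depended on how the arrays were scaled. In Boxers 0 members of the 6 lists passed under any of the 4 scalings tried; limma gave an unadjusted p under 0.05 for 0 of 4 small heat shock genes, 1 of 17 chaperone genes, 1 of 14 titin and Z-disc genes, 0 of 9 ubiquitin genes, 2 of 6 fetal genes and 1 of 6 mechanical genes, where 8.57% of all genes had one. In paced mongrels median centring gave falls of 7 of 9 ubiquitin genes, 5 of 17 chaperone genes, 5 of 14 titin and Z-disc genes and 3 of 4 small heat shock genes, where the scaling as deposited gave 0. That centring also gave falls of 11 of 11 cardiomyocyte markers and moved the median change of all probe sets to -0.45. The share of all genes called under it is not given here, so these falls are not particular to the lists. In Dobermans the same centring left 0 rises among the small heat shock, chaperone and mechanical genes, and quantile normalization gave 2 rises among the fetal genes (CCN2, adjusted p = 0.0386, and MYL7, adjusted p = 0.0299). With all 13 arrays, the rises and falls against controls of the list genes named above as passing kept their sign under all 4 scalings, though not all kept their calls.

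Counted over the 10 tested probe sets of the 5 genes, 2 were called in Dobermans against controls, both higher (UCHL1 and HSPB7), where 25.5% of all tested probe sets were called. In Boxers 0 of 10 passed, against 0.0420% of all probe sets; limma gave an unadjusted p under 0.05 for 3 of the 10, the UCHL1 sets and 1594628_s_at of FHL1, beside 7.40% of all probe sets. In paced mongrels 1 of 10 passed, against 12.2% of all. Each share of called sets is near its background or rests on 2 probe sets or fewer. Of the 3 sets with an unadjusted p under 0.05 in Boxers, 2 read the same gene, UCHL1. The counts therefore say nothing about these genes as a group.

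Between the diseased groups, 3 of 10 were called, all higher in Dobermans than in Boxers, where 35.4% of all probe sets were called. Of 11 tested cardiomyocyte markers 5 were higher and 1 was lower in Dobermans than in Boxers. Against paced mongrels 7 of 10 were called, all higher in Dobermans, where 24.6% of all were called; 8 of 11 tested cardiomyocyte markers were higher in Dobermans as well. Boxers against paced mongrels gave 2 of 10, both sets of UCHL1, where 17.7% of all were called. Comparisons with the same controls or the same Dobermans share those arrays, so their counts are not independent.

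Overlap between groups was counted in the same way. Against controls 3 of 10 probe sets did not overlap in Dobermans, 3 of 10 in Boxers and 2 of 10 in paced mongrels, where over all tested probe sets the shares were 33.5%, 15.7% and 44.0%. Between Dobermans and Boxers 2 of 10 did not overlap (34.0% of all), between Dobermans and paced mongrels 6 of 10 (32.1% of all) and between Boxers and paced mongrels 3 of 10 (43.4% of all). The median change of the 5 brightest probe sets against controls was 0.82 in Dobermans, 0.17 in Boxers and -0.39 in paced mongrels, beside 0.04, -0.02 and -0.04 over all genes. Over the 11 tested cardiomyocyte markers it was 0.47, -0.24 and -0.40, so the Doberman and paced directions are not particular to these genes.

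**Figure D3:**
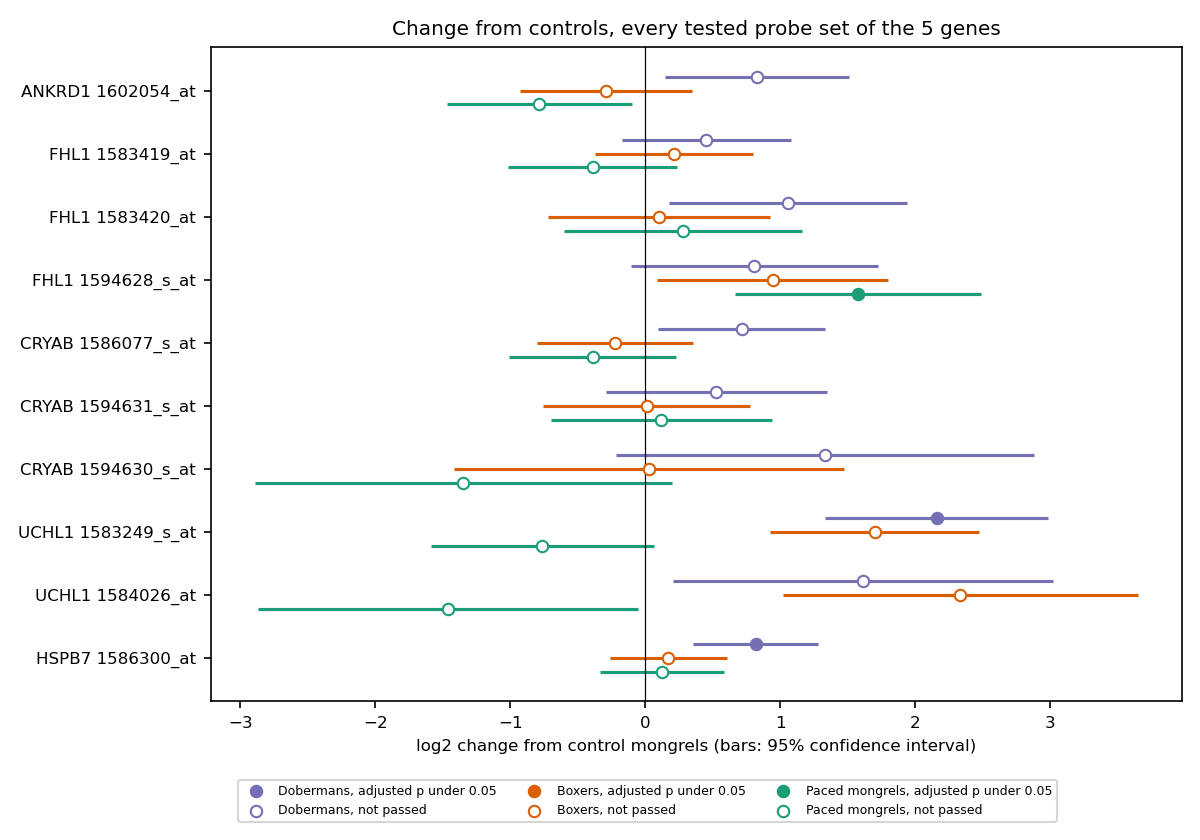
Log2 change from control mongrels (horizontal axis, with 95% confidence intervals) of each of the 10 tested probe sets in Dobermans, Boxers and paced mongrels; filled circles have an adjusted p under 0.05. Filled circles are UCHL1 1583249_s_at and HSPB7 in Dobermans and FHL1 1594628_s_at in paced mongrels, and no Boxer circle is filled.

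**Figure D4:**
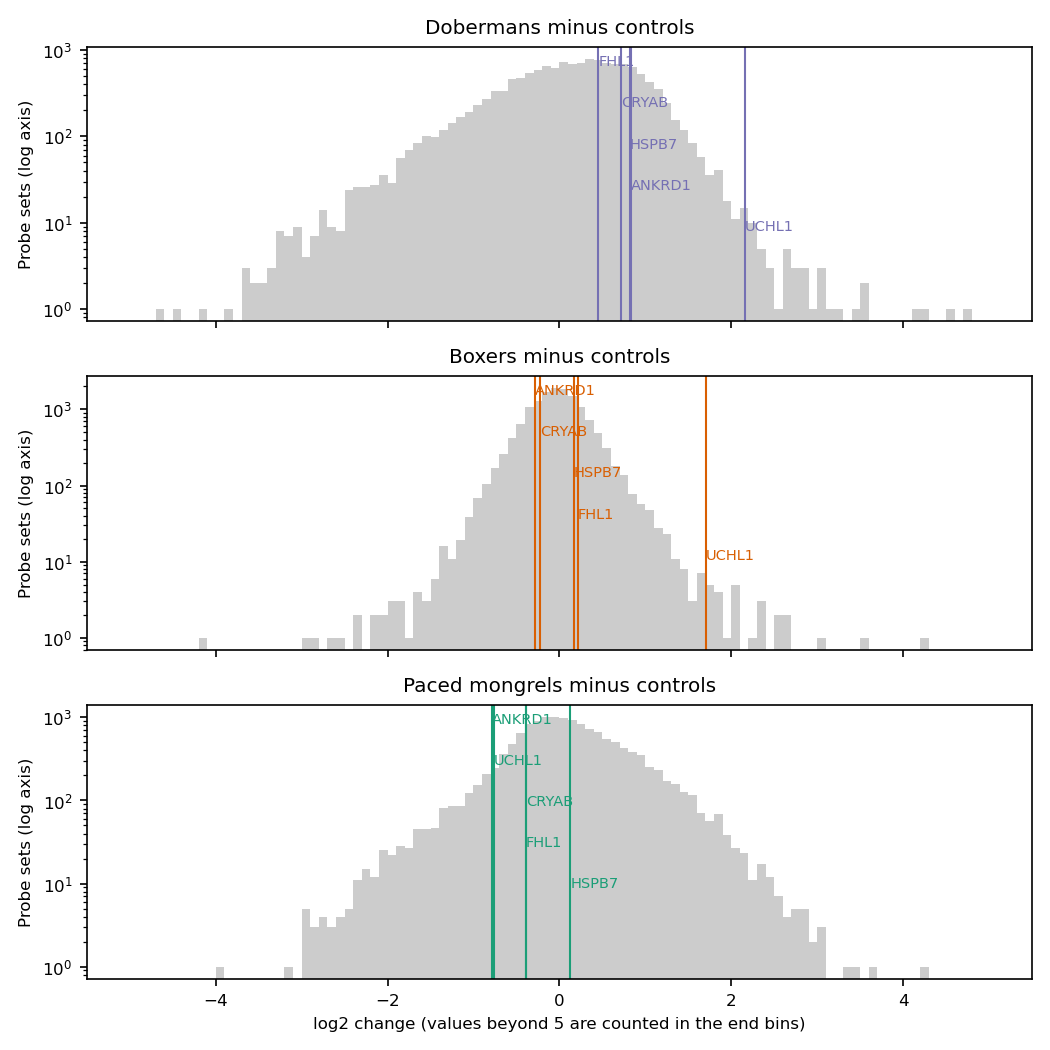
Histogram of the log2 change from controls over all 14302 tested probe sets (number of probe sets on a log axis), with vertical lines at the brightest probe set of each gene, for Dobermans, Boxers and paced mongrels. UCHL1 lies in the right tail in Dobermans (2.16) and Boxers (1.70), and the other genes lie within the body of each distribution.

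The genes whose pattern over the 13 arrays was most like each of these, among 5095 compared, are given as a description, since arrays of a group and the high readings of L and R are shared by all genes. CRYAB lay closest to TNNC1, cardiac troponin C (r = 0.997), MYL2, the ventricular myosin light chain (r = 0.992), and RPS29, a ribosomal protein gene. HSPB7 lay closest to SAXO1 (r = 0.963), RHOC (r = 0.961) and GFUS (r = 0.956). ANKRD1 lay closest to GSPT2 (r = 0.934), TTC17 (r = 0.924) and FAU (r = 0.923). FHL1 as read by 1583419_at lay closest to BAG3, the co-chaperone that works with the small heat shock proteins (r = 0.884), TOMM70 (r = 0.873) and PCK1 (r = 0.849). UCHL1 lay closest to PPP3CC, a catalytic subunit of calcineurin (r = 0.910), APEX1 (r = 0.894) and ADPRH (r = 0.890).

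Among the 5 genes themselves the closest pairs were ANKRD1 with CRYAB (r = 0.890) and CRYAB with HSPB7 (r = 0.866). The highest readings of ANKRD1, CRYAB and HSPB7 were those of L and R, and no correlation without them was computed. UCHL1 correlated best with FHL1 as read by 1583419_at (r = 0.650), a set that correlated with the other tested FHL1 sets at r = -0.004 and 0.145. In Doberman K, the sample with a GAPDH ratio like that of the other groups, UCHL1 and FHL1 had their highest brightest-set reading of the series, and CRYAB and ANKRD1 lay inside the control range.

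**Figure D5:**
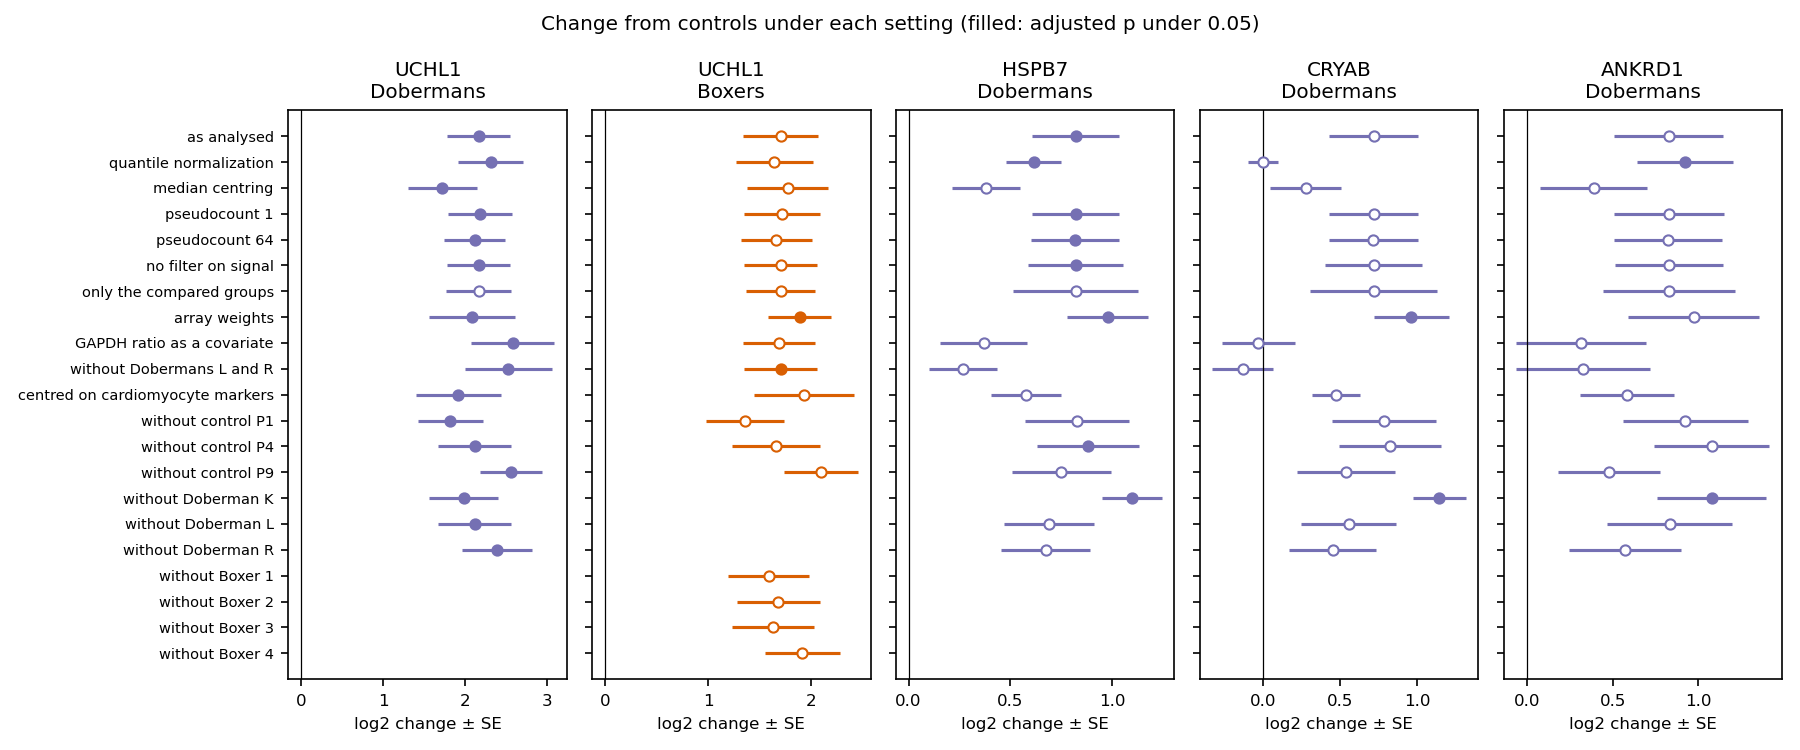
Log2 change from controls with its SE (horizontal axis) under each setting (rows) for UCHL1 in Dobermans and Boxers and for HSPB7, CRYAB and ANKRD1 in Dobermans; filled circles have an adjusted p under 0.05. The UCHL1 values in Dobermans run from 1.72 to 2.58, while the CRYAB values in Dobermans run from -0.13 to 1.14.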

How the data were processed

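The authors deposited 1 linear signal intensity per probe set and array, made with MAS5 per the submitters' processing notes; RNA was extracted with Trizol and a column cleanup and labelled by the standard 1-cycle method, per the labels' protocols. The version of MAS5 is not given in the sources used here. The 2% trimmed mean was 500.1 on every array. Of 23913 probe sets 77 control sets were set aside. Values were analysed as log2(signal + 16), and probe sets under the 40th percentile of mean log2 value (6.95, a signal of 108) were not tested, which left 14302.

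All 13 arrays entered 1 linear model of group means (limma 3.58.1 under R 4.3.3), with an intensity trend, 9 residual degrees of freedom and Benjamini-Hochberg adjustment over all tested probe sets of each comparison at 0.05. A gene's brightest tested probe set stood for it. All 5 genes were named, with the 3 most correlated genes of each, and of each partner list the 4 with the smallest adjusted p in any comparison with controls; MYPN, TCAP, MYOZ1, the tested neuron markers and single genes named for passing were added after their values were seen. The genes and lists were chosen with earlier results of these data known. The scripts were tested on simulated data. The number of arrays limits the precision. Alternatives were 2 other normalizations, pseudocounts of 1 and 64, no filter, a fit of the compared groups alone, array weights, the GAPDH ratio as a covariate, each array left out, L and R left out, and centring on cardiomyocyte markers; the last, and the lists without L and R or under other scalings, were chosen after seeing the data. Where 1 array of a group was left, the fit assumes that it varies like the other groups. Sequences and promoter motifs were not analysed here.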

Additional observations from a re-analysis of the deposited data

Results flagged for a closer look

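Differences between groups under the same comparison were seen for 12 changes, each tested directly in limma. Dobermans exceeded Boxers at ANKRD1 (1.12 on the log2 scale), CRYAB (0.94) and HSPB7 (0.65). Dobermans exceeded paced mongrels at ANKRD1 (1.61), FHL1 (0.84), CRYAB (1.10 at 1586077_s_at and 2.68 at 1594630_s_at, 1.52 without Doberman R), UCHL1 (2.92 at 1583249_s_at and 3.07 at 1584026_at) and HSPB7 (0.69). Boxers exceeded paced mongrels at both UCHL1 sets (2.46 and 3.80). At both sets no paced mongrel reached the level of the lowest Boxer or Doberman.

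Boxer 4 lay far below the other Boxers at UCHL1 1584026_at, with a signal of 260.4, and was the lowest Boxer at 1583249_s_at too. It was the only one of 10 groups of 4 Boxers examined, 1 per probe set, with such a gap; chance gives one in about 1 of 20 groups.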

How the results depend on the processing

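No paired analysis was possible because the groups share no replicate numbers. The rise of UCHL1 in Dobermans over controls kept its call in 15 of 16 alternatives, and was lost in the fit of the compared groups alone (adjusted p = 0.0944, limma); its differences from paced mongrels were called in all 16 and 17 alternatives. UCHL1 in Boxers over controls passed with array weights (1.89, adjusted p = 0.0163) and without L and R (adjusted p = 0.0495), and in none of the others. HSPB7 in Dobermans over controls was lost in 9 of 16.

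The counts of the 10 probe sets called moved with the setting. The share of all probe sets called under each setting is not given here, so these counts say nothing about the 5 genes as a group. Under median centring the median change of all probe sets in Boxers over paced moved from -0.07 to 0.51. With medians centred they were 1 (Dobermans over controls), 3 (paced over controls), 0 (Dobermans over Boxers) and 7 (Boxers over paced). With quantile normalization they were 1 (Dobermans over Boxers) and 4 (Dobermans over paced). With only the compared groups they were 0, 2, 1 and 2 (Dobermans over controls, paced over controls, Dobermans over Boxers, Dobermans over paced). With array weights they were 5, 2, 2 and 5 (Dobermans, Boxers and paced over controls, Dobermans over Boxers). With the GAPDH covariate they were 0 and 2 (Dobermans over Boxers and over paced). Without L and R they were 1 and 3 (Boxers and paced over controls), 0 and 3 (Dobermans over Boxers and over paced). Centred on cardiomyocyte markers they were 1, 2 and 1 (Dobermans and paced over controls, Dobermans over Boxers). Leaving out 1 array gave 1 to 7, 0 to 0 and 0 to 1 for Dobermans, Boxers and paced over controls, 0 to 6 for Dobermans over Boxers (6 without K, 1 without L, 0 without R), 4 to 9 for Dobermans over paced and 2 to 2 for Boxers over paced. The 7 came without K, the 1 without P1 or L, and the paced 0 without P1, P4, LV01 or LV02.

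The sign turned for CRYAB in Dobermans over controls with the GAPDH covariate (-0.031) and without L and R (-0.13), in Boxers under quantile normalization (0.030) and marker centring (0.0036), in paced mongrels under both (0.028 and 0.042), in Dobermans over Boxers and over paced under quantile normalization (-0.029 and -0.027), and in Boxers over paced under marker centring (-0.039). It turned for FHL1 in paced mongrels under marker centring (0.043) and in Dobermans over Boxers under median and marker centring (-0.27 and -0.23), for UCHL1 in that comparison under both (-0.049 and -0.010), for HSPB7 in paced mongrels under median centring (-0.38), and for HSPB7 in Boxers over paced under quantile normalization (-0.16), marker centring (-0.16) and without LV02 (-0.062, with 0.14 the highest when 1 array was left out). At CRYAB quantile normalization cannot decide the sign, since the set ranked 1 to 20 by signal on every array. The cause was not tested. Median centring moved the median change of all probe sets from 0.19 to -0.25 in Dobermans and from 0.06 to -0.45 in paced mongrels.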

Other observations

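Both probe sets left out for low signal held values near the floor of the arrays. FHL1 1594629_s_at read 12.3 to 36.1 in controls, 23.4 to 94.7 in Dobermans, 48.8 to 137.2 in paced mongrels and 7.0 to 98.9 in Boxers. CRYAB 1597268_at read 37.8 to 52.0 in controls, 17.5 to 50.9 in Dobermans, 21.3 to 55.4 in paced mongrels and 4.9 to 70.4 in Boxers. Every paced mongrel lay above every control at FHL1 1594629_s_at, as at 1594628_s_at, but at this signal no change was fitted.

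Limits. With 3 or 4 arrays per group, breed and disease in one contrast and no control of either breed, group differences cannot be assigned to disease. Doberman K read far below L and R at CRYAB and HSPB7, so a Doberman mean at these genes describes no single heart. Signal saturation at CRYAB was not tested.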
